A study of Mus musculus with 8 samples.

Results

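The windows described here are 4667 strand-specific windows of 10 kb in the mouse genome (build mm9). In them, the 3 libraries that enter the merged SRSF3 iCLIP track beside the 2 replicates held at least 2-fold more or at least 2-fold fewer cDNAs than those replicates. At each nucleotide and strand the cDNAs of both replicates were subtracted from those of the merged track, and the remainder is called the other libraries. cDNAs were summed per window, scaled to 1000000 cDNAs per source (CPM), and windows with at least 50 cDNAs in all were kept. Of 21841 such windows, 2319 had a log2 ratio of 1 or more, other libraries over pooled replicates (10.6%), and 2348 had a log2 ratio of -1 or less (10.8%), together 21.4%. The same ratio chose the windows, so the ratios below describe them and were not tested. The header of the merged track names it for SRSF3 with the letters CM, and the labels used here give no cell type, treatment or genotype for the 3 libraries. "Higher" and "lower" below always refer to the other libraries against the pooled replicates.

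SRSF3 belongs to the SR proteins, RNA-binding proteins that take part in the choice of splice sites, in polyadenylation and in the export of mRNA. In iCLIP, ultraviolet light links a protein to the RNA it touches, the protein is precipitated, and reverse transcription tends to stop next to the linked nucleotide, so each cDNA end marks a contact. A cDNA count in iCLIP depends on how much of an RNA is present and on how often it is bound, and these cannot be told apart here, nor can fewer cells of a type and less RNA per cell.

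The series holds 8 mouse samples in 3 groups. Both iCLIP replicates came from neonatal cardiomyocytes of C57BL/6 pups at postnatal day 0 to 1, which received 15 µg of SRSF3-GFP modRNA by lipid transfection. They were irradiated with 100 mJ of light at 254 nm 48 h later, and the protein was precipitated with a goat antibody to GFP, so the tagged SRSF3 was added to cells that kept their own. The other 6 samples, hearts of SRSF3flox/flox;alphaMHC-CreERT2 mice and of alphaMHC-CreERT2 controls (3 each, both given 4-hydroxytamoxifen, 3 injections of 1 mg, 5 days before the hearts were taken), are not analysed here. Replicate 1 held 815414 cDNAs, replicate 2 held 2253688 and the other libraries held 1138453, which is 27.1% of the merged track. A count of 0 allows up to 3 cDNAs, or 3.68 CPM in replicate 1, 1.33 in replicate 2 and 2.64 in the other libraries. Intervals below are exact 95% intervals for ratios and 95% Wilson intervals for shares, and cover counting error only. Nothing in the labels says that the replicates are separate cultures, and their headers give them the same library identifier, so a difference between them measures spread that may be technical.

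Ratios of 2-fold or more were rarer between the replicates. With replicate 1 set against replicate 2 in the same way, 270 of 21828 windows were at least 2-fold higher in replicate 1 (1.24%) and 663 at least 2-fold higher in replicate 2 (3.04%). An exact binomial test (two-sided, expected share from the library totals, Benjamini-Hochberg adjustment at a 5% false discovery rate) called 13 of these windows (0.0596%), and 0 of the higher and 0 of the lower members were among them. The median higher and lower member had 11.7 and 23.5 CPM in the pooled replicates, where this test has little power. The 0 calls therefore say little about how well the replicates agree in the members. At an unadjusted p under 0.05 the exact test picked 129 of 2306 higher and 123 of 2348 lower members, 5.59% and 5.24%, beside 5.35% of all windows. Against replicate 1 alone, 83.4% of the higher and 79.9% of the lower members kept a 2-fold ratio. Against replicate 2 alone, 92.2% and 90.8% did, and against each of the replicates 75.6% and 70.7%. The pooled replicates chose the members, and replicate 2 holds 2253688 of their 3069102 cDNAs. These shares are therefore partly set by the choice and are a description only.

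**Figure D1:**
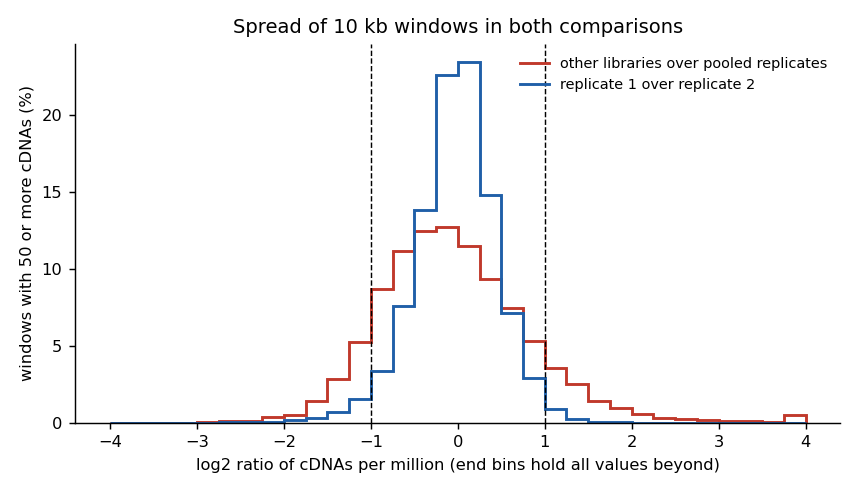
Share of windows with at least 50 cDNAs (y axis, percent) by log2 ratio of CPM (x axis), for the other libraries over the pooled replicates (red) and replicate 1 over replicate 2 (blue), with dashed lines at the 2-fold limits. Beyond the limits lie 10.6% and 10.8% of windows in the first comparison and 1.24% and 3.04% in the second.

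The higher direction had the longer tail. The median log2 ratio was 1.43 among the higher windows and -1.26 among the lower ones, and the most extreme finite values were 8.62 and -4.24. The interval of the ratio lay wholly beyond 2-fold in 811 higher windows (35.0%) and in 123 lower ones (5.24%). These shares also depend on counts. The other libraries had a median of 9.66 CPM in lower windows and 35.1 CPM in higher ones, and fewer cDNAs on 1 side widen the interval. In 13 higher windows neither replicate held a cDNA, and no window was without a cDNA in the other libraries. Near the limits, 371 higher members lay within 0.1 log2 units inside the limit and 446 windows within 0.1 outside it, and for the lower limit these counts were 543 and 686. The median over all windows was -0.12, and with ratios set relative to that median the members were 2839 higher and 1736 lower, so that the higher share of members went from 49.7% to 62.1%.

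Median depth was similar in both directions. The median window held 76 cDNAs in all among the higher members, 83 among the lower and 81 over all windows tested, and the third quartiles were 107 and 135 cDNAs among the higher and lower members. The median higher window had 11.7 CPM in the pooled replicates and 35.1 CPM in the other libraries, and the median lower window 23.5 and 9.66 CPM. Measures that the ratio did not use differed somewhat. A single nucleotide held at least 10% of the cDNAs in 42 higher windows (1.81%) and 3 lower windows (0.128%), beside 0.696% of all windows. The share of cDNAs on the opposite strand of the same window had a median of 1.59% among the higher members, 0.775% among the lower and 1.05% over all windows.

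Members of the same direction lay next to each other along a strand. Where the next window on the strand was also tested, it was higher too for 526 of 1043 higher windows (50.4%) and lower too for 590 of 1624 lower windows (36.3%). The opposite direction followed in 8 and 6 cases. After a window under 2-fold, the next was higher in 4.84% and lower in 9.07% of 11253 cases. Joined into runs, the higher members formed 1793 runs, of which 1428 were a single window, and the lower members 1758, of which 1395 were. The longest runs covered 100 kb in the higher and 120 kb in the lower direction, and 38.4% and 40.6% of the members lay in runs of more than 1 window. Both strands carried similar numbers of runs, 914 on the plus and 879 on the minus strand for higher members and 881 and 877 for lower ones. Both strands were tested at 264 window positions, counted here by the class of the plus strand. Where the plus strand was higher (33 positions), the minus strand was higher in 6 and lower in 4. Where the plus strand was lower (36 positions), the minus strand was lower in 3 and higher in 3. Where the plus strand was under 2-fold (195 positions), the minus strand was higher in 32 (16.4%) and lower in 26 (13.3%). The shares beside higher plus-strand windows, 18.2% and 12.1%, lay near that background.

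The directions were spread unevenly over the chromosomes. Chromosome 11 had 299 higher windows of 1721 tested, 17.4% (interval 15.7 to 19.2%), and 122 lower ones, 7.09% (5.97 to 8.40%). The X chromosome had the largest shares of any chromosome with at least 50 tested windows in both directions, 94 of 460 higher, 20.4% (17.0 to 24.4%), and 65 lower, 14.1% (11.2 to 17.6%). Chromosome 18 lay at the other end for higher windows, with 51 of 798, 6.39% (4.89 to 8.31%), and had 12.4% lower. Windows of 1 chromosome include runs over the same gene and are not independent, so these intervals are narrower than the true uncertainty. None of the 4 windows of the mitochondrial genome was a member.

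**Figure D2:**
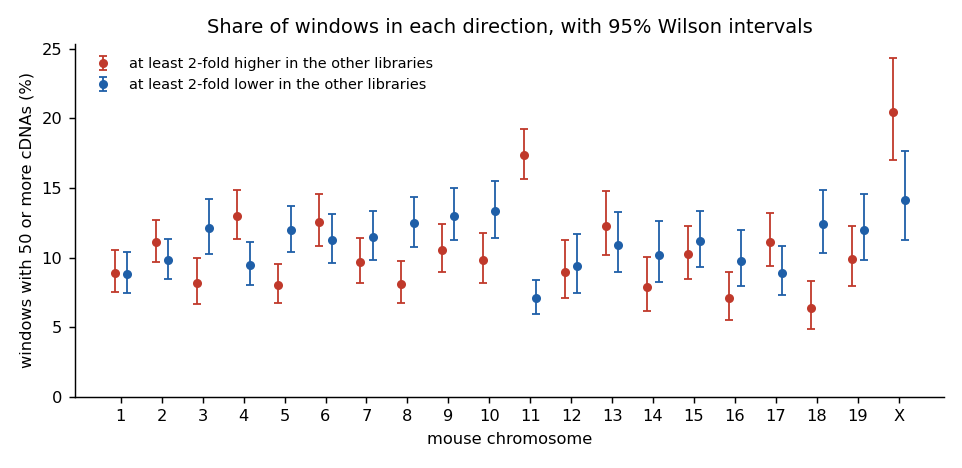
Percent of tested windows at least 2-fold higher (red) or lower (blue) in the other libraries, by mouse chromosome, with 95% Wilson intervals over windows. Chromosome 11 and the X chromosome stand above the rest for higher windows, at 17.4% and 20.4%.

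Because the annotation at hand is of another genome build, windows are given by their mm9 position and genes were named from the data. The exon pattern of each gene model with at least 6 exons was moved along the cDNAs of its chromosome strand, and a name was accepted only where exons stood out from their flanks at 1 offset, with a score of at least 8 and at least 2 times the score at any offset more than 10 kb away. For each direction, runs were chosen by the largest CPM difference, by length and by the most extreme single windows, which gave 13 higher and 19 lower runs, and 7 and 8 of them received a name. The second limit compares offsets of 1 gene, and other genes came close on 3 of the named runs: St8sia2 scored 7.94 beside 8.62 for Snrpn, Armh4 13.1 beside 14.3 for Myh6 and Mbd6 9.21 beside 10.3 for Mars.

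The largest difference in CPM among the higher runs lay on chr7:67110001-67150000, minus strand, where the exon pattern of Snrpn was placed. Snrpn encodes a protein of the small nuclear ribonucleoproteins of the spliceosome and is an imprinted gene expressed strongly in neurons. The run held 24 cDNAs in replicate 1, 57 in replicate 2 and 1371 in the other libraries, or 29.4, 25.3 and 1204 CPM. Both replicates were alike and the other libraries lay far above them, 45.6-fold (log2 ratio 5.51, interval 5.19 to 5.85). The gene model covered 44.4% of the run's cDNAs, and the rest lay outside it on the same strand. All 4 windows of the run had log2 ratios between 5.26 and 5.80.

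Phc1, a subunit of a Polycomb complex that keeps genes silent, filled the run chr6:122260001-122290000 on the minus strand. This run held 15, 31 and 652 cDNAs in replicate 1, replicate 2 and the other libraries, or 18.4, 13.8 and 573 CPM, a 38.2-fold ratio (log2 5.26, interval 4.82 to 5.72). The opposite strand held 8.76% of the cDNAs there, more than the 1.59% median of higher windows. Over the whole gene Phc1 had 15.9 and 13.8 CPM in the replicates and 589 CPM in the other libraries. The 3 tested windows of the gene were the 3 of the run, chosen because they were higher. The gene values therefore rest on nearly the same cDNAs as the run.

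In the long genes Prex2 and Thada nearly all tested windows were higher. Prex2 encodes an exchange factor that activates the GTPase Rac. Its run chr1:11050001-11110000 on the plus strand had 12.3 CPM in replicate 1, 17.7 in replicate 2 and 453 in the other libraries, 27.8-fold higher (log2 4.80, interval 4.38 to 5.25). In the 310 kb of the gene model 14 of 14 tested windows were higher, at a gene log2 ratio of 4.00. Thada, a gene linked to thyroid adenomas and to thermogenesis, had the run chr17:84810001-84850000 on the minus strand with 20.8, 19.5 and 377 CPM, 18.96-fold higher (log2 4.24, interval 3.86 to 4.66). Over its 276 kb, 12 of 13 tested windows were higher. Both counts include the windows of the runs that chose the genes, and 10.6% of all windows were higher. The pooled replicates held 234 cDNAs in Prex2 and 409 in Thada, and the other libraries 1391 and 1141. Windows of these genes may therefore reach the minimum count mainly through the other libraries, which favours higher windows. The window counts of both genes are a description only. The replicates lay close together in both genes. The other libraries were outside their range in each, which the choice of runs by this ratio favours.

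Huwe1, Mdn1 and Mars differed by less and were well covered in the replicates too. Huwe1, a very large ubiquitin ligase, gave the longest higher run, chrX:148270001-148370000 on the plus strand, with 330 CPM in replicate 1, 371 in replicate 2 and 978 in the other libraries, 2.71-fold higher (log2 1.44, interval 1.32 to 1.56). Mdn1 encodes a giant ATPase needed to build the large ribosomal subunit, and its run chr4:32800001-32870000 on the plus strand had 109, 98.5 and 282 CPM (log2 1.48, interval 1.25 to 1.71). Mars, the methionyl-tRNA synthetase, took 43.2% of the cDNAs of the run chr10:126710001-126750000 on the minus strand, with 124, 130 and 597 CPM (log2 2.21, interval 2.03 to 2.40). In that run the opposite strand held 24.5% of the cDNAs.

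**Figure D3:**
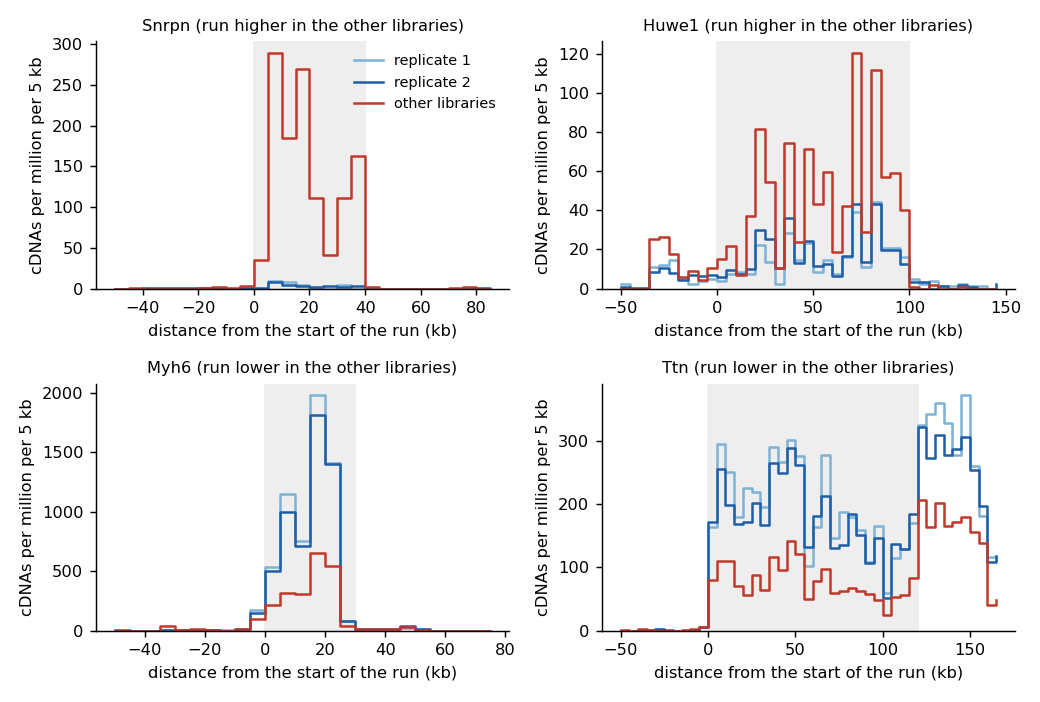
CPM in bins of 5 kb (y axis) against the distance from the start of the run along the plus strand (x axis, kb) in replicate 1 (light blue), replicate 2 (dark blue) and the other libraries (red) at 2 higher runs (Snrpn, Huwe1) and 2 lower runs (Myh6, Ttn), with the run shaded. Over most of the shaded run the other libraries lie above the replicates in the upper panels and below them in the lower ones.

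The other 6 higher runs received no name under the limits. At chr4:131400001-131460000 on the plus strand, replicate 1 had 96.9 CPM, replicate 2 101 and the other libraries 1029, 10.3-fold higher (log2 3.36, interval 3.18 to 3.55). The best-matching model there was Srsf4, an SR protein like SRSF3, whose score of 8.50 was too close to 6.36 at another offset to be accepted. At chr2:153470001-153520000 on the plus strand the values were 3.68, 9.32 and 424 CPM, 54.3-fold higher (log2 5.76, and 6.85 without replicate 2). Dnmt3b and Cbfa2t2 matched that run about equally, with scores of 6.37 and 6.30, both under the limit. The run chr17:23940001-23970000 on the plus strand was deep in all sources, with 639, 564 and 1282 CPM (log2 1.14, interval 1.03 to 1.24). It matched Srrm2, a large spliceosome-associated protein, best at 15.7 beside 8.57 at another offset. A second gene model, Vmn2r102, came close there at 13.5. The run chr6:30600001-30640000 on the minus strand had 8.58, 6.21 and 349 CPM, 51.0-fold higher, and chr4:137150001-137220000 on the plus strand 113, 98.5 and 275 CPM (log2 1.43). Names under the limit are given as best matches and nothing was counted from them.

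The single window chr3:127240001-127250000 on the plus strand held 236 cDNAs in the other libraries at 179 positions and none in either replicate. Set against the limit of 3 cDNAs for the pooled replicates, it was at least 212-fold higher. The other 12 windows without a cDNA in the replicates held 52 to 122 cDNAs in the other libraries, at least 46.7-fold to at least 109.6-fold higher by the same limit. One of them, chr7:67360001-67370000 on the minus strand with 78 cDNAs, lay on the same chromosome strand as the Snrpn run.

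Among the lower runs, Myh6 had the largest difference in CPM. Myh6 encodes the alpha myosin heavy chain, the motor protein of heart muscle. Its run chr14:55560001-55590000 on the minus strand held 4817 cDNAs in replicate 1, 12420 in replicate 2 and 2370 in the other libraries, or 5907, 5511 and 2082 CPM, 2.70-fold lower (log2 -1.43, interval -1.49 to -1.37). The other libraries lay below both replicates in each of its 3 windows, which the choice of windows favours, with log2 ratios from -1.54 to -1.36. With each listed position counted once, whatever its cDNA count, the log2 ratio of the run was -0.61, under 2-fold. Myh6 and its neighbour Myh7 are near-identical in parts, and the sources used here do not say how reads that match both were handled, so the values of Myh6 are uncertain to that extent.

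Ttn gave the longest lower run. Ttn encodes titin, the giant elastic protein that spans the sarcomere from the Z disc to the M band. The run chr2:76540001-76660000 on the minus strand had 4625 CPM in replicate 1, 4283 in replicate 2 and 1860.4 in the other libraries, 2.35-fold lower (log2 -1.23, interval -1.30 to -1.17). A second run of the same gene, chr2:76740001-76760000, had 1729, 1699 and 842 CPM (log2 -1.02, interval -1.12 to -0.92), which lay under 2-fold at -0.72 with each position counted once. Over the gene 17 of 29 tested windows were lower and 0 higher, beside 10.8% lower of all windows. The 17 include the windows of both runs, which were chosen for being lower. The whole gene had a log2 ratio of -1.02, so Ttn as a whole lay at the 2-fold limit and part of its windows beyond it. The other libraries still held 6104 CPM in Ttn, beside 12820.5 and 12164 in the replicates.

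Of the other named lower runs, 1 each lay in Sorbs2, Tns1, Ldb3, Dysf and Ank3. Sorbs2, an adaptor of the Z disc, had 1239, 1294 and 573 CPM at chr8:46830001-46890000 on the plus strand (log2 -1.16). Tns1, tensin 1, which joins integrins to actin, had 819, 797 and 335 CPM at chr1:73960001-74000000 on the minus strand (log2 -1.26). Ldb3, a Z disc protein also called Cypher, had 797, 739.7 and 293 CPM at chr14:35340001-35380000 on the minus strand (log2 -1.37). In these runs the replicates differed by 0.11 log2 units or less. The other libraries lay below both, which the choice of runs favours. Dysf, which encodes dysferlin, a protein of membrane repair in muscle, had 375, 356 and 139.7 CPM at chr6:83980001-84060000 on the plus strand (log2 -1.37). Ank3, which encodes ankyrin G, an anchor of membrane proteins, had 224, 280.4 and 106 CPM at chr10:69120001-69220000 on the plus strand (log2 -1.32). Of the windows of these genes, 17 of 21 tested were lower in Dysf and 21 of 40 in Ank3, and 0 were higher in either. In Sorbs2, Tns1 and Ldb3, 7 of 21, 8 of 17 and 6 of 7 were lower. These counts include the windows of the runs that chose the genes, and 10.8% of all windows were lower. The whole gene lay at -1.37 in Dysf, and under 2-fold at -0.80 in Ank3 and -0.83 in Sorbs2.

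The 11 unnamed lower runs ranged from chr14:55590001-55630000 on the plus strand, with 1989, 1865 and 776 CPM (log2 -1.29), to the single window chr19:56790001-56800000. The first of these begins where the Myh6 run ends, on the opposite strand. The run chrX:56610001-56710000 on the minus strand spanned 10 windows with 349.5, 362 and 148 CPM (log2 -1.27), and chr15:40810001-40900000 on the plus strand spanned 9 with 287, 322 and 120.3 CPM (log2 -1.38). The most extreme lower window with at least 200 cDNAs was chr9:56720001-56730000 on the plus strand, with 62.5, 59.5 and 15.8 CPM, 3.81-fold lower (log2 -1.93, interval -2.72 to -1.23). Its interval overlapped that of chr19:56790001-56800000 on the plus strand, with 63.8, 63.5 and 16.7 CPM (log2 -1.93, interval -2.69 to -1.25). No chosen lower window came near the 5.15 to 5.80 log2 units of the finite extreme higher windows.

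**Figure D4:**
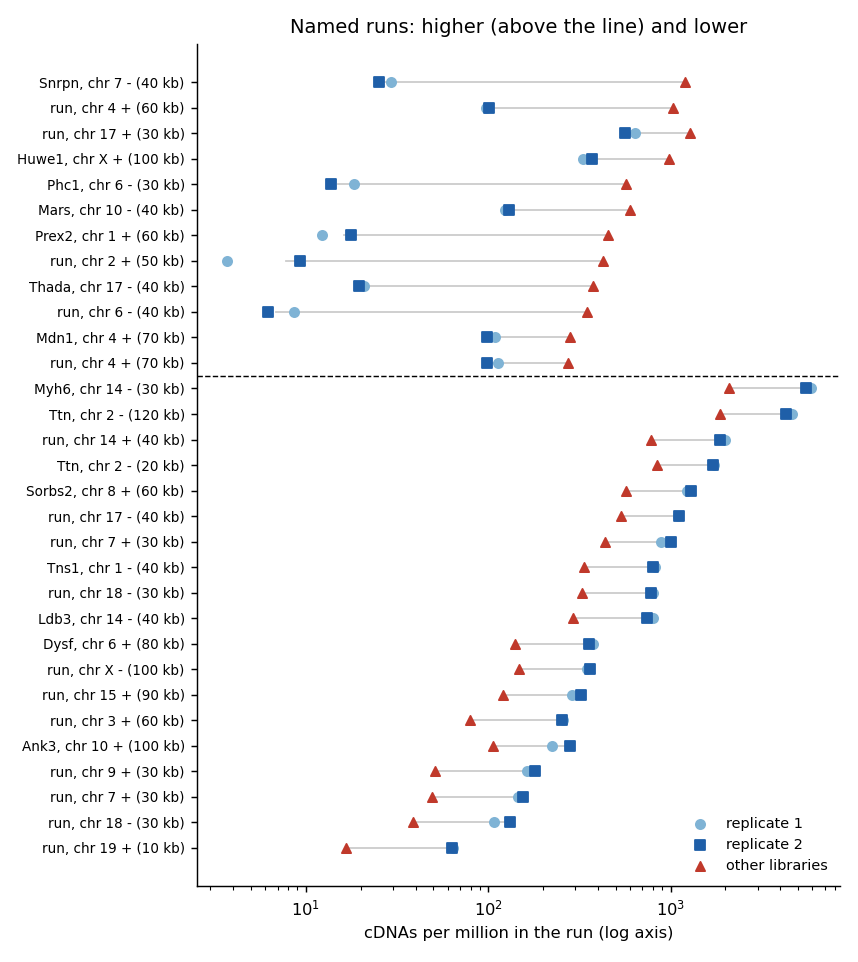
CPM (x axis, log scale) in replicate 1 (light blue circles), replicate 2 (dark blue squares) and the other libraries (red triangles) for the chosen runs, labelled by placed gene or as a run, with chromosome, strand and length. Every triangle lies to the right of both replicates above the dashed line and to the left below it, which the choice of runs favours. The widest gaps lie above the line. The window without a cDNA in the replicates cannot be drawn on a log axis.

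To describe whole genes, the same placement was tried for 4549 protein-coding gene models with at least 15 exons, and 419 were placed. Of these, 64 had a gene log2 ratio of 1 or more (15.3%) and 16 of -1 or less (3.82%), and the median was 0.13. Placement favours genes with many cDNAs in exons, so these genes are no random draw of the windows. The genes below were named after their values were seen.

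Among the 64 higher genes the ratio reached furthest for Enpp3, an ectoenzyme that splits extracellular nucleotides. It held 1 cDNA in replicate 1, 7 in replicate 2 and 325 in the other libraries, or 1.23, 3.11 and 285 CPM (log2 6.78, interval 5.78 to 8.00). The value in replicate 1 lay under the 3 cDNAs that a count of 0 allows. Pole, the catalytic subunit of DNA polymerase epsilon, had 9.81, 12.4 and 164 CPM (log2 3.81, interval 3.29 to 4.36). Top2a, the topoisomerase that untangles replicated chromosomes, had 20.8, 33.7 and 309 CPM (log2 3.35, interval 3.02 to 3.70).

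Other higher genes are named singly, picked after their values were seen, and stand for no gene group. Rfc1, a placed replication gene, lay under 2-fold at 0.64. Atad2, a chromatin-bound ATPase of dividing cells, had 25.8, 31.1 and 188 CPM (log2 2.66). Mms22l, which guards stalled replication forks, had 20.8, 28.4 and 138 CPM (log2 2.39). Rif1, which sets the timing of replication, had 65.0, 63.0 and 308 CPM (log2 2.28). Dnmt1, which copies DNA methylation to new strands, had 66.2, 56.8 and 202 CPM (log2 1.77). Atm and Atr, the kinases that respond to DNA damage, had log2 ratios of 1.56 and 1.21. Smc3, Smc4 and Smc5, of the structural maintenance of chromosomes family, lay between 1.20 and 1.46. Of all 419 placed genes, 15.3% were at least 2-fold higher. The replicates were below the other libraries in each of these genes, which the choice of genes by this ratio favours.

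The groups in this paragraph were formed after the values were seen, and 15.3% of all 419 placed genes were at least 2-fold higher. Of 5 placed aminoacyl-tRNA synthetases, the enzymes that load tRNAs, 4 were at least 2-fold higher. These were Mars at 2.48, Aars at 1.73, Lars at 1.62 and Iars at 1.05, and Eprs lay at 0.70. Ddx21, an RNA helicase of the nucleolus, had 42.9, 35.9 and 227.5 CPM (log2 2.59), and Tcof1, which supports ribosomal RNA transcription, 31.9, 31.9 and 142 CPM (log2 2.16). Of 11 placed genes of the nuclear pore and of nuclear transport, 6 were at least 2-fold higher, beside the same 15.3% of all placed genes. Among them were the importin Kpnb1 at 1.83, the exportin Xpo1 at 1.74 and the pore protein Tpr at 1.35. The range over the 11 was -0.11 (Xpo6) to 1.83, and their median was 1.01 beside 0.13 over all placed genes. Sf3b3, a subunit of the U2 snRNP, had 87.1, 86.1 and 347 CPM (log2 2.01), and Srrm1, an SR-related splicing coactivator, 152, 159 and 406 CPM (log2 1.37).

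The 16 lower genes lay in a narrow band from -1.44 to -1.001. Acacb, the acetyl-CoA carboxylase of muscle mitochondria, had 216, 236.5 and 85.2 CPM (log2 -1.44, interval -1.76 to -1.13). Dsp, desmoplakin, which anchors the junctions between heart muscle cells, had 173, 171 and 65.9 CPM (log2 -1.38, interval -1.75 to -1.03). Flnc, the filamin of striated muscle, had 454, 431 and 180.1 CPM (log2 -1.28, interval -1.50 to -1.07). The muscle glycogen phosphorylase Pygm lay at -1.06, the kinase Dmpk at -1.09 and the Z disc protein Mypn at -1.04. Postn and Col12a1, which encode matrix proteins made by fibroblasts and other connective tissue cells, were lower too, at -1.06 and -1.16. The other libraries lay below both replicates in each of these 8 genes, which the choice of genes by this ratio favours.

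Placed genes were also grouped by symbol, after their values were seen. A list of symbols for the sarcomere, Z disc and M band held 16 placed genes. All 16 had ratios below 0, from -1.44 to -0.45 with a median of -0.88. In this list 5 genes were at least 2-fold lower, beside 3.82% of all 419 placed genes. The list is no full count of such genes: Sorbs2, the Z disc adaptor named above, was placed at -0.83 and is not in it. Of the ion channels of heart muscle, Kcnq1 lay at -1.001, Cacna1c at -0.97, Ryr2 at -0.75 and Cacna1g at -0.55. The 5 placed collagens ranged from -1.16 to -0.61 and the 3 placed integrins from -0.73 to -0.29. In the gene table as a whole 239 genes lay above 0 and 180 below.

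Of 9 marker and gene lists with 65 genes in all, 12 genes could be placed, so most lists were not measured. In the gene table, 3.82% of the 419 placed genes were at least 2-fold lower and 180 lay below 0. The cardiomyocyte list had 8 of 14 genes placed, 2 at least 2-fold lower (Myh6 and Ttn), 6 lower by less and 0 higher. Those 6 were Actc1 at -0.96, Actn2 at -0.88, Mybpc3 at -0.86, Tnnt2 at -0.82, Ryr2 at -0.75 and Atp2a2 at -0.65, all with intervals below 0. None was near 0 CPM in the other libraries: the lowest, Actc1, cardiac actin, had 326 CPM beside 612 and 642.5. The fibroblast and matrix list had 2 of 10 placed, Postn at -1.06 and Fn1, fibronectin, at -0.79. The cell cycle list had 1 of 4, Top2a, and the nuclear noncoding list 1 of 6, Xist, the RNA that coats the inactive X chromosome, at -0.58. No gene of the endothelial, smooth muscle and pericyte, blood and immune, neural or SR protein lists was placed.

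The exonic share of a gene's cDNAs was not part of the choice of windows, and it differed between the directions. It was higher in the other libraries than in the pooled replicates in 55 of the 64 higher genes and in 0 of the 16 lower genes, beside 177 of the 339 genes under 2-fold. The median difference was 7.49 percentage points in the higher genes, -6.74 in the lower and 0.24 in those under 2-fold. The intervals of both shares lay apart in 18 higher genes, always with the larger share in the other libraries, and in 10 lower genes, always with the smaller. Between the replicates they lay apart in 10 of all 419 genes with the larger share in replicate 1 and in 1 with the smaller. The ratio of a gene and its exonic share come from the same cDNAs, so a gene whose exons differ more than its introns moves in both measures. Placement used the cDNAs of all libraries and needed exons to stand out, so a strongly higher gene was placed largely through the other libraries and a lower one through the replicates. That favours a large exonic share in the source that placed the gene, and the counts are a description only.

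Mars and Top2a had the shift towards exons among the higher genes, Myh6 and Pygm the reverse among the lower ones. In Mars 38.4% of the cDNAs of the pooled replicates lay in exons (interval 31.0 to 46.4%) and 67.4% of those of the other libraries (62.0 to 72.4%). In Top2a the shares were 43.0% (33.4 to 53.2%) and 63.4% (58.2 to 68.2%), and in the endoplasmic reticulum chaperone Canx 48.0% (41.6 to 54.5%) and 72.6% (67.1 to 77.5%). In Myh6 the share was 47.7% (46.9 to 48.4%) in the replicates and 34.2% (32.3 to 36.1%) in the other libraries, and in Pygm 55.8% (50.8 to 60.6%) and 34.8% (24.6 to 46.6%). Ttn went from 66.9% (66.4 to 67.3%) to 62.4% (61.2 to 63.5%). Phc1, with one of the largest ratios, had shares whose intervals overlapped, 52.3% (37.9 to 66.2%) from 44 cDNAs of the replicates and 55.6% (51.8 to 59.3%). In the listed sarcomere, Z disc and M band genes the share was lower in the other libraries in 16 of 16, beside 187 of all 419 placed genes. In the aminoacyl-tRNA synthetases it was higher in 5 of 5, beside 232 of 419. Both groups were formed after the values were seen, and the limit of placement given above holds for them too, so these counts are a description only.

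**Figure D5:**
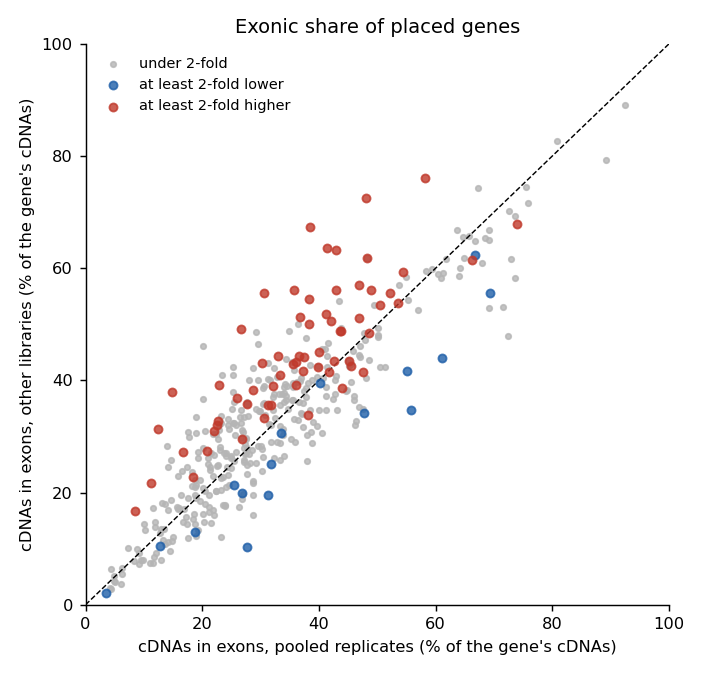
Percent of each placed gene's cDNAs that lie in exons, in the pooled replicates (x axis) and in the other libraries (y axis), for 419 genes coloured by gene ratio, with a dashed line of equal shares. Of the 64 higher genes (red) 55 lie above the line, and of the 16 lower genes (blue) none does.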

How the data were processed

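Each deposited track gives 1 score per nucleotide: its absolute value counts cDNAs and its sign marks the strand (per the file headers). The headers give the mm9 genome and Ensembl 59, and the submitters' processing notes name Bowtie 0.10.1; the handling of duplicates and of reads with several matches is not given in the sources used. The merged track sums 5 libraries, 2 of them the replicates, per its header. Members and gene lists were chosen with earlier results of these data known. Here cDNAs were summed per 10 kb window and strand, divided by the total of each source and given per 1000000, with Python 3.11.15, pandas 2.3.3, numpy 2.4.6 and scipy 1.17.1. Coordinates are 1-based. Ratios were not tested; replicate 1 was tested against replicate 2 with a two-sided exact binomial test and Benjamini-Hochberg adjustment.

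Named runs were, per direction, the 10 with the largest summed CPM difference, the 5 longest, and the runs of the 5 most extreme windows with at least 200 cDNAs. Gene names came from GENCODE M21 exon patterns, a rule added after the data were seen: the square root of the listed positions in each exon minus that of the 200 nt on either side, scaled to length, was summed over exons at offsets within 8 Mb, and a run was named only where the gene held at least 20% of its cDNAs. That annotation is of another build (GRCm38), the patterns were laid on the positions of all libraries together, and no coordinate of it is printed. The gene lists had been planned only for an mm9 annotation and were measured in this way instead. Of the 419 placed genes, 411 had an offset within 100 kb of that of a neighbouring placed gene. Sequences are not shown because no genome of this build was used here. The procedures were also run on simulated data, and the outcome is not reported here. No share of members from counting error alone is given. Alternatives were other scalings, minimum counts, window sizes and grids, each replicate left out, and each position counted once.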

Additional observations from a re-analysis of the deposited data

How the results depend on the processing

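The alternatives below were planned, and the numbers of higher and lower windows stayed within 1.5 times 2319 and 2348 under other scalings, window sizes, a moved grid and positions counted once. Without replicate 1 or replicate 2 the counts ranged from 1186 to 1903 higher and from 709 to 1775 lower, with 16671 and 7178 windows left to test. A minimum of 20 cDNAs gave 6582 higher and 6873 lower of 48327, and one of 200 gave 157 and 328 of 2033, where 32.4% of members were higher. Scaling by the median ratio gave 2839 and 1736. The 13 windows that differed between the replicates became 21 with each position counted once. Of the chosen runs with cDNAs in the replicates, all kept their direction under 5 alternatives, and the ratio left its interval in 6 runs without replicate 2, in 6 with positions counted once and in 5 under median scaling. With positions counted once, 5 lower runs fell under 2-fold: Myh6 (-0.61), the second Ttn run (-0.72), chr7:51720001-51750000 (-0.91), chr14:55590001-55630000 (-0.99) and chr17:82010001-82050000 (-0.99). Under median scaling the second Ttn run (-0.90) and chr17:82010001-82050000 (-0.95) did. The cause was not tested. No paired analysis was possible because the other libraries carry no replicate number. The interval lay wholly beyond 2-fold in 35.0% of higher and 5.24% of lower windows. Lower windows held fewer cDNAs of the other libraries, which widens their intervals, and the cause of the difference was not tested. The 3 libraries cannot be separated, so a ratio may come from 1 of them, and no spread among them is known.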

Other observations

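A single nucleotide held at least 10% of the cDNAs in 42 higher and 3 lower windows. At chr6:72750001-72760000 on the plus strand the replicates held 16 and 17 cDNAs and the other libraries 193, at 42 positions, with 28 cDNAs at 1 of them (log2 ratio 3.98). At chr12:110250001-110260000 on the minus strand the counts were 5, 4 and 56 at 9 positions, with 26 at 1 of them (log2 4.07). Among the lower members, chr8:87630001-87640000 on the minus strand held 9, 54 and 7 cDNAs, and 46 of these lay at 1 nucleotide (log2 -1.74). These windows were picked after their values were seen, and which RNAs they hold was not analysed here.

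In genes under 2-fold the exonic share also differed in places. The intervals lay apart in 33 such genes with the larger share in the other libraries, among them Rfc1, a subunit of the replication clamp loader (20.1% in the pooled replicates, 46.1% in the other libraries, gene log2 ratio 0.64), and in 29 with the smaller share, among them Thbs1, the matrix protein thrombospondin 1 (73.6% and 58.3%, log2 -0.91).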
